A study of Mus musculus with 34 samples.

Results

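Bone morphogenetic protein (BMP) signalling and its Id target genes were followed in RNA-seq of J1 mouse embryonic stem cells (mESCs) kept without leukaemia inhibitory factor (LIF), with or without Royalactin. The 10 genes were taken by symbol from a table of 23366 gene symbols. They comprise the ligand Bmp4, the receptors Bmpr1a and Bmpr2, the signal-transducing Smad1 and Smad5, the inhibitory Smad6, and the targets Id1, Id2, Id3 and Id4. All 10 passed the filter on low values, a mean of at least 10 normalized counts over the 4 libraries, which left 12993 genes in the test.

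BMP ligands bind type I and type II receptor kinases on the cell surface, which phosphorylate Smad1 and Smad5. These enter the nucleus with Smad4 and switch on target genes, among them the Id genes. Id proteins are helix-loop-helix proteins without a DNA-binding region that pair with E proteins such as Tcf3 and keep them off DNA, and in mESCs BMP and Id activity is known to act beside LIF against differentiation.

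Royalactin is a protein of honey bee royal jelly, and the comparison asked how the transcriptome of mESCs without LIF differs when it is supplied. J1 is an established mESC line, grown here on gelatin in medium with serum. The sources conflict on passage: the sample labels give 40, and the study's text gives 10 for the cells of its RNA-seq. Both groups lacked LIF: 2 libraries came from cells in this medium alone (serum/-LIF), and 2 from cells that also received purified Royalactin at 0.5 mg/ml (serum/-LIF + Royalactin). The samples include no serum/+LIF RNA-seq library, and the serum/+LIF libraries of chromatin accessibility (ATAC-seq) were not analysed here. The replicate numbers do not say which libraries came from separate cultures, so p-values measure only the spread between these libraries, which may be technical.

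Each library held from 14737796 to 17597818 reads on genes. From 9.08% to 46.6% of them fell on Rn45s, the precursor of ribosomal RNA, so that 7878527 to 15999458 reads remained for other genes. In each group this share was higher in replicate 1 than in replicate 2. Replicates differed by a median of 0.57 on the log2 scale in serum/-LIF and of 0.39 in serum/-LIF + Royalactin, over all tested genes. A list of 7 genes of the embryonic stem cell state was summed (Pou5f1, Sox2, Nanog, Zfp42, Esrrb, Dppa5a and Fgf4), of which Dppa5a was the largest. The sum was between 14358 and 16663 normalized counts in serum/-LIF and between 25504 and 31985 with Royalactin. A sum does not give the level of each gene.

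Promoters of 3 of the genes are shown because Smad proteins are known to bind GC-rich letters there: Id2 and Bmpr2 were lower in both Royalactin libraries, and Id4 is an Id gene whose groups overlapped. All 3 hold GGCGCC, so this choice does not show how common that motif is among the members. The promoter of Id3, another Id gene with overlapping groups, lacks it and is not shown. Each sequence is the 250 bases before the gene's start in RefSeq (GRCm38.p6), 5′ to 3′ on the strand of the gene, and each matched mm9 without a mismatch at a single place, given here in mm9 coordinates. Capitals mark GGCGCC, which reads the same on both strands, and GGAGCC or its reverse complement GGCTCC.
Id2, chr12:25780958-25781207, minus strand: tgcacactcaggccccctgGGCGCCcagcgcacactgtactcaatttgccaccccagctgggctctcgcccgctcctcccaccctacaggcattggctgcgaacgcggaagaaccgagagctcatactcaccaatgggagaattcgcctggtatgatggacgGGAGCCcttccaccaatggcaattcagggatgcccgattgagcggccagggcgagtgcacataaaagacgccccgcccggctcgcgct
Bmpr2, chr1:59820873-59821122, plus strand: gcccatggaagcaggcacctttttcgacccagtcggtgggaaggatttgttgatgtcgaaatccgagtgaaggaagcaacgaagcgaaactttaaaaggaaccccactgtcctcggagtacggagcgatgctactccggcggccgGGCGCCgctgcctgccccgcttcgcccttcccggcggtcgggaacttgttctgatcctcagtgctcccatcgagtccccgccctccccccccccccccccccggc
Id4, chr13:48356235-48356484, plus strand: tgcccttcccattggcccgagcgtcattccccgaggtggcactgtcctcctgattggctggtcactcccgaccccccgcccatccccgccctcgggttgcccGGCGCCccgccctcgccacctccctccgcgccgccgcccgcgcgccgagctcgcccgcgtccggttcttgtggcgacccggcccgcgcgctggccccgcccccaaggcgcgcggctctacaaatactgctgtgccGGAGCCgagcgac
The Id2 and Id4 promoters each held 1 copy of both motifs, and the Bmpr2 promoter held GGCGCC alone. Of the 9 members with an entry in the promoter table, all but Id1, 5 had GGCGCC in at least 1 of their windows (Bmpr1a, Bmpr2, Id2, Id4 and Smad5), and 6 had GGAGCC or GGCTCC (Bmp4, Id2, Id3, Id4, Smad5 and Smad6). Counted by window, since Smad5 has more than 1, GGCGCC was in 5 of 11 (45.5%) and GGAGCC or GGCTCC in 6 of 11 (54.5%). Over all 32851 promoters of this length, 9.59% held GGCGCC and 26% held GGAGCC or GGCTCC. The GC content of the members' windows ran from 60% to 78.8%, and its part in these counts was not tested. A shorter Smad motif, CAGAC or its reverse complement GTCTG, stood before 2 of the 9 members (Id3 and Smad5). It was in 2 of the 11 windows (18.2%), against 42.2% of all promoters. These letters are a description of the windows, and the genes that hold GGCGCC include both some with lower values with Royalactin and some with overlapping groups.

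The 10 genes gave no call at an adjusted p-value under 0.05 (limma, Benjamini-Hochberg over all tested genes), where 0.493% of tested genes, 64 of 12993, were called. edgeR and DESeq2 on recovered reads also called 0 of the 10. By the study's own limits, an unadjusted p-value under 0.05 and a change of at least 2-fold, 1 of the 10 was selected, Id1, against 7.13% of tested genes in either direction and 3.61% in the lower direction. At an unadjusted p-value under 0.05 alone, 3 of the 10 were counted (Id1, Id2 and Bmpr2), against 9.34% of tested genes. Both Royalactin libraries lay below both serum/-LIF libraries for 4 of the 10 (Id1, Id2, Bmpr1a and Bmpr2), against 18.9% of tested genes, and above both for 0 of the 10, against 19.7%. The median log2 fold change with Royalactin was -0.02 for the 10 genes, 6 below 0 and 4 above, and -0.01 for all tested genes. In bulk libraries such as these, fewer cells of a type and less RNA per cell cannot be told apart.

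**Figure D1:**
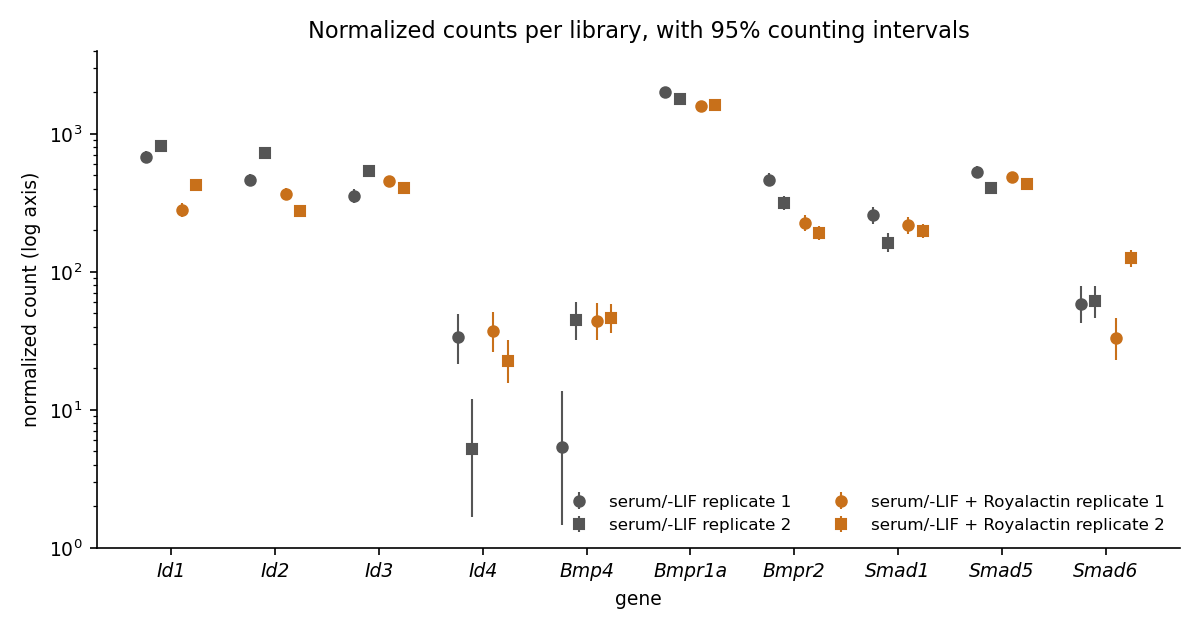
Normalized counts (log axis) of the 10 genes in each of the 4 libraries. Grey marks are serum/-LIF and orange marks serum/-LIF + Royalactin, circles replicate 1 and squares replicate 2, and bars are exact 95% Poisson intervals that cover counting error only. Both orange marks sit below both grey marks for Id1, Id2, Bmpr1a and Bmpr2, while 1 grey mark stands far below the other for Id4 and Bmp4.

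Bmp4, the BMP ligand of the set and one that stem cell cultures are often given, was a low gene with a wide gap between its serum/-LIF replicates. It lies on the minus strand at chr14:47003195-47010344 (mm9). Bmp4 measured 5.35 and 44.5 normalized counts in serum/-LIF replicates 1 and 2, and 44.3 and 46.1 with Royalactin. Serum/-LIF replicate 1 stood alone at the low end, and the other 3 libraries lay close together. The low value rests on 4 reads, with an exact 95% Poisson interval of 1.46 to 13.7 normalized counts, and the other 3 libraries held 43, 44 and 67 reads. Bmp4 had a log2 fold change of 1.44 (SE 1.08, 95% interval -0.88 to 3.76, n = 2 libraries a group; limma adjusted p = 0.735). By edgeR on recovered reads it was 0.86. Without serum/-LIF replicate 1 it was 0.02, so almost no difference was left, and without serum/-LIF replicate 2 it was 2.86. The rise therefore rested on serum/-LIF replicate 1, the library with 4 reads. Bmp4 shares 89 exon bases (4.002%) with Gm15217 on the opposite strand.

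Both receptors of the set were below both serum/-LIF libraries with Royalactin, Bmpr1a by little and Bmpr2 by more. Bmpr1a, the type I receptor that binds BMP4 (minus strand, chr14:35223920-35316527), was the gene of the set with the most reads, 1499 to 2362 per library. It measured 2005 and 1776 normalized counts in serum/-LIF and 1583 and 1626 with Royalactin. Both Royalactin libraries were below both serum/-LIF libraries, by a narrow margin. For Bmpr1a the log2 fold change was -0.23 (SE 0.29, 95% interval -0.85 to 0.38; limma adjusted p = 0.853), a difference within the error of the fit. Bmpr1a shares 290 exon bases (4.57%) with Gm17110 on the opposite strand.

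Bmpr2, the type II receptor that phosphorylates the type I partner (plus strand, chr1:59821481-59927703), was lower with Royalactin in both libraries. It measured 465 and 317 normalized counts in serum/-LIF, a mean of 391 ± 105 (SD, n = 2), and 227 and 191 with Royalactin, a mean of 209 ± 25.9 (SD, n = 2). The highest Royalactin value stayed under the lowest serum/-LIF value. Bmpr2 had a log2 fold change of -0.88 (SE 0.40, 95% interval -1.73 to -0.02), 1.84-fold lower, with an unadjusted p of 0.0445 and an adjusted p of 0.518 (limma). Without serum/-LIF replicate 1 it was -0.60 (limma unadjusted p = 0.167), and the p was also above 0.05 without Royalactin replicate 1 (0.114) and without Royalactin replicate 2 (0.211). The same held with scaling to total reads without Rn45s (0.0711) and by limma without the variance trend (0.0757). Within each library, the ratio of Bmpr1a to Bmpr2 reads was 4.31 and 5.61 in serum/-LIF and 6.96 and 8.53 with Royalactin, a ratio chosen after the values were seen. The groups did not overlap, and an exact two-sided permutation test of 2 against 2 libraries gave p = 0.333, the smallest value it can give.

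Smad1 and Smad5, the receptor-regulated Smads that carry the BMP signal to the nucleus, did not separate the groups. Smad1 (minus strand, chr8:81862294-81923417) measured 257 and 163 normalized counts in serum/-LIF and 217 and 198 with Royalactin. Both Royalactin values lay between the serum/-LIF values. Its log2 fold change was 0.02 (SE 0.44, 95% interval -0.92 to 0.96; limma adjusted p = 0.992). Smad5 (plus strand, chr13:56804371-56843738) measured 528 and 404 normalized counts in serum/-LIF and 487 and 430 with Royalactin, and again both Royalactin values lay between the others. Its log2 fold change was -0.01 (SE 0.35, 95% interval -0.76 to 0.73; limma adjusted p = 0.995), so that a change of Smad5 anywhere between 0.591-fold and 1.66-fold is within the interval. The ratio of Smad1 to Smad5 reads was 0.486 and 0.403 in serum/-LIF and 0.446 and 0.462 with Royalactin, with overlap. Of 274 exon tiles of 75 bases from Smad5, 14 (5.11%) also matched chromosome 6 with up to 2 mismatches, so a part of its reads cannot be placed with certainty.

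Smad6, the inhibitory Smad that blocks BMP receptors and is itself a target of the pathway, was low and uneven between the Royalactin replicates. It lies on the minus strand at chr9:63800953-63869866. Smad6 measured 58.8 and 61.1 normalized counts in serum/-LIF, from 44 and 59 reads, and 33.2 and 125 with Royalactin, from 33 and 182 reads. The Royalactin libraries lay on opposite sides of the serum/-LIF libraries. Its log2 fold change was 0.11 (SE 0.74, 95% interval -1.49 to 1.71; limma adjusted p = 0.978), and it was -0.83 without Royalactin replicate 2 and 1.05 without Royalactin replicate 1.

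Among the targets, Id1 and Id2 were lower in both Royalactin libraries, Id3 was between the serum/-LIF values, and Id4 was too low to compare. Id1 (plus strand, chr2:152561987-152563146) encodes an inhibitor of E proteins and is a standard readout of BMP signalling. It measured 685 and 811 normalized counts in serum/-LIF, a mean of 748 ± 89.6 (SD, n = 2), and 280 and 426 with Royalactin, a mean of 353 ± 104 (SD, n = 2). The groups stood well apart, and Royalactin replicate 1 was the lowest of the 4 libraries. The log2 fold change of Id1 was -1.11 (SE 0.35, 95% interval -1.87 to -0.35), 2.16-fold lower, with an unadjusted p of 0.00748 and an adjusted p of 0.274 (limma). Id1 stayed lower with each library left out, which follows from both Royalactin libraries being below both serum/-LIF libraries. Its change was below the study's 2-fold limit without Royalactin replicate 1 (-0.81) and without serum/-LIF replicate 2 (-0.99). When GC content and exon length were corrected for, the fold was just under 2 (-0.98) with a limma unadjusted p of 0.00235 (adjusted p = 0.0830).

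Id2 (minus strand, chr12:25778666-25780957), the family member known for holding back differentiation in many lineages, measured 464 and 720.4 normalized counts in serum/-LIF, a mean of 592 ± 181 (SD, n = 2). With Royalactin it measured 366 and 275, a mean of 321 ± 64.2 (SD, n = 2). The groups did not overlap, although the serum/-LIF replicates lay farther from each other than the nearest libraries of the 2 groups did. The log2 fold change of Id2 was -0.86 (SE 0.37, 95% interval -1.66 to -0.06), 1.82-fold lower, with an unadjusted p of 0.0363 and an adjusted p of 0.485 (limma). Of its 44 exon tiles, 6 (13.6%) also matched chromosome X, where a part lies in the annotated pseudogene Gm6175, so reads from these stretches are uncertain. Without serum/-LIF replicate 2 the log2 fold change of Id2 was -0.55, and without serum/-LIF replicate 1 it was -1.18. Its unadjusted limma p was above 0.05 without serum/-LIF replicate 2 (0.182), without Royalactin replicate 1 (0.0811) and without Royalactin replicate 2 (0.241). It was also above 0.05 with the correction for GC content and exon length (0.0613, log2 fold change -0.60) and by limma without the variance trend (0.0967).

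Id3 (plus strand, chr4:135699412-135701670), which is close to Id1 in sequence and in its response to BMP, had overlapping groups. It measured 356 and 542 normalized counts in serum/-LIF and 454 and 407 with Royalactin. Both Royalactin values lay between the serum/-LIF values. For Id3 the log2 fold change was -0.03 (SE 0.36, 95% interval -0.81 to 0.75; limma adjusted p = 0.988), an interval that does not reach the value of Id1 but overlaps its interval.

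Id4 (plus strand, chr13:48356796-48359405), the member of the family best known from neural and germ cells, measured 33.4 and 5.18 normalized counts in serum/-LIF and 37.2 and 22.7 with Royalactin, from 25, 5, 37 and 33 reads. Serum/-LIF replicate 2 was the lowest, with an exact 95% Poisson interval of 1.68 to 12.1 normalized counts, and the groups overlapped. The log2 fold change of Id4 was 1.05 (SE 1.18, 95% interval -1.49 to 3.58; limma adjusted p = 0.837), and 0.66 by edgeR on recovered reads. Id4 shares 171 exon bases, 10.3% of its length, with A330033J07Rik on the opposite strand, and the strand setting of the counting is not given in the sources used here.

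**Figure D2:**
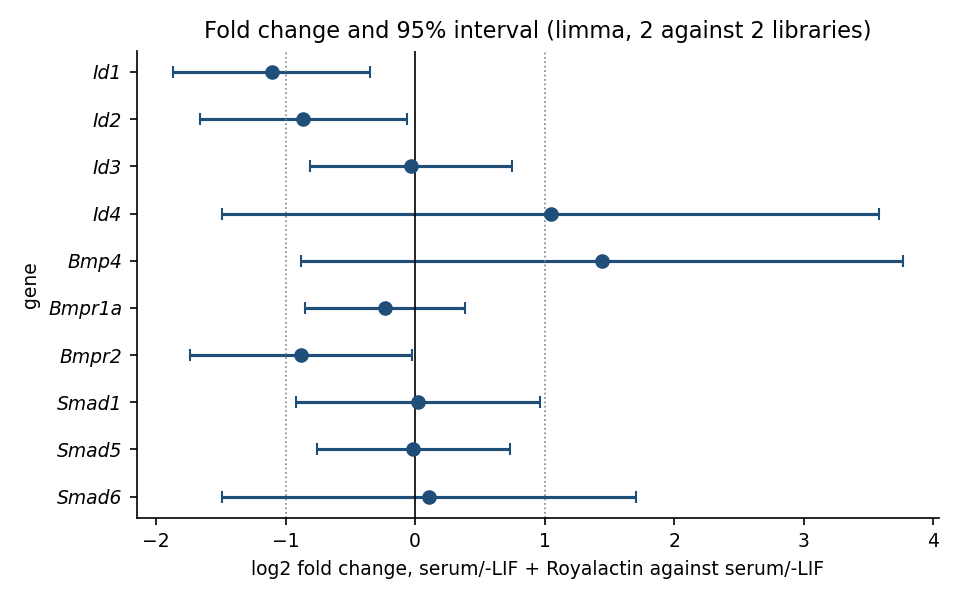
Log2 fold changes with Royalactin (points) and 95% intervals (bars) of the 10 genes from limma on 2 against 2 libraries, with dotted lines at a 2-fold change in either direction. The intervals of Id1, Id2 and Bmpr2 lie below 0, and those of Bmp4 and Id4 are the widest.

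The sum over the Id genes was lower in both Royalactin libraries, which followed from Id1 and Id2, since Id3 lay between its serum/-LIF values and Id4 was low. Sum and shares were chosen after the values were seen and were not tested, and a lower count of Id1 and Id2 by itself makes the share of Id3 larger. The summed normalized counts of Id1 to Id4 were 1538 and 2079 in serum/-LIF and 1137 and 1131 with Royalactin, with no overlap between the groups. Of the Id reads of each library, Id1 took 44.5% and 39.0% in serum/-LIF and 24.6% and 37.7% with Royalactin. Id3 took 23.1% and 26.1% in serum/-LIF and 39.9% and 36.0% with Royalactin. The share of Id3 was thus higher in both Royalactin libraries and that of Id1 lower in both, while the shares of Id2 (30.2% and 34.6%, then 32.2% and 24.3%) and of Id4 (0.249% to 3.27%) overlapped. The exact binomial 95% intervals of the Id3 share, 20.7% to 25.7% and 24.2% to 28.1% in serum/-LIF against 37.0% to 42.8% and 33.6% to 38.3% with Royalactin, did not meet. Those of the Id1 share did: 36.9% to 41.2% in serum/-LIF replicate 2 overlapped 35.3% to 40.1% in Royalactin replicate 2. These intervals cover counting error only, and each share depends on the others of its library.

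**Figure D3:**
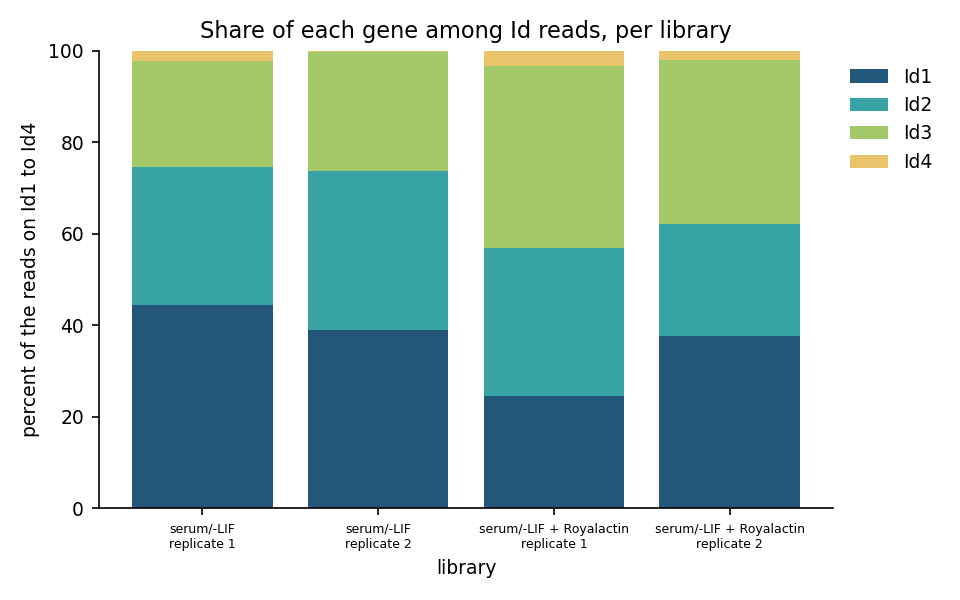
Percent of the reads on Id1 to Id4 that fell on each gene, in each of the 4 libraries (stacked bars). Id3 takes 23.1% and 26.1% of the Id reads in the serum/-LIF libraries and 39.9% and 36.0% in the Royalactin libraries, and Id1 is smallest in Royalactin replicate 1.

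The ratios within a library do not depend on the scaling between libraries, and were chosen after the values were seen. The ratio of Id1 to Id3 reads was 1.92 and 1.496 in serum/-LIF and 0.616 and 1.05 with Royalactin. The ratio of Id2 to Id3 was 1.30 and 1.33 in serum/-LIF and 0.807 and 0.677 with Royalactin. Both ratios separated the groups (exact permutation p = 0.333 for each, the smallest that 2 against 2 libraries can give), whereas Id1 to Id2, at 1.48 and 1.13 against 0.764 and 1.55, did not. The median log2 fold change of the 4 Id genes was -0.45, against -0.01 for all tested genes, a midpoint between Id2 and Id3. It was -0.76 without serum/-LIF replicate 1 and -0.29 with the correction for GC content and exon length.

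Levels of the genes were set in order per kilobase of exon (normalized counts per kb, exons from GENCODE of the same build). The order depends on these lengths, and the annotation used for the counting is not given. For Id1 the joined exons cover the whole span of the gene, 1160 bases, and a shorter length would raise its level. In serum/-LIF, Id1 was the highest with 645 ± 77.3 (SD, n = 2), followed by Id2 with 466 ± 143, Bmpr1a with 298 ± 25.4 and Id3 with 251 ± 73.7. Below them came Bmpr2 with 112, Smad5 with 62.8, Smad1 with 36.1, Smad6 with 19.1, Id4 with 11.6 and Bmp4 with 11.2. The libraries of neighbours in this order did not overlap, except for Bmpr1a and Id3, Smad6 and Id4, and Id4 and Bmp4. With Royalactin, the levels of Id1 (304 ± 89.3), Bmpr1a (253 ± 4.75), Id2 (253 ± 50.5) and Id3 (240.2 ± 18.5) could not be told apart from their neighbours in the order. Smad5 with 61.7 and Bmpr2 with 59.6 formed the next level, also overlapping, and Smad1 with 35.7, Smad6 with 25.3, Bmp4 with 20.3 and Id4 with 18.1 the lowest. With these exon lengths, the lead of Id1 over the receptor Bmpr1a that was present in serum/-LIF was within the spread of the libraries with Royalactin. Other lengths were not tried.

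Among the 10 genes, those with few reads had the largest errors. Bmp4, Id4 and Smad6 lie where many genes differ by more than 2-fold between the groups, whereas Bmpr1a lies where few do. Standard errors of the log2 fold changes ran from 0.29 for Bmpr1a to 1.18 for Id4.

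**Figure D4:**
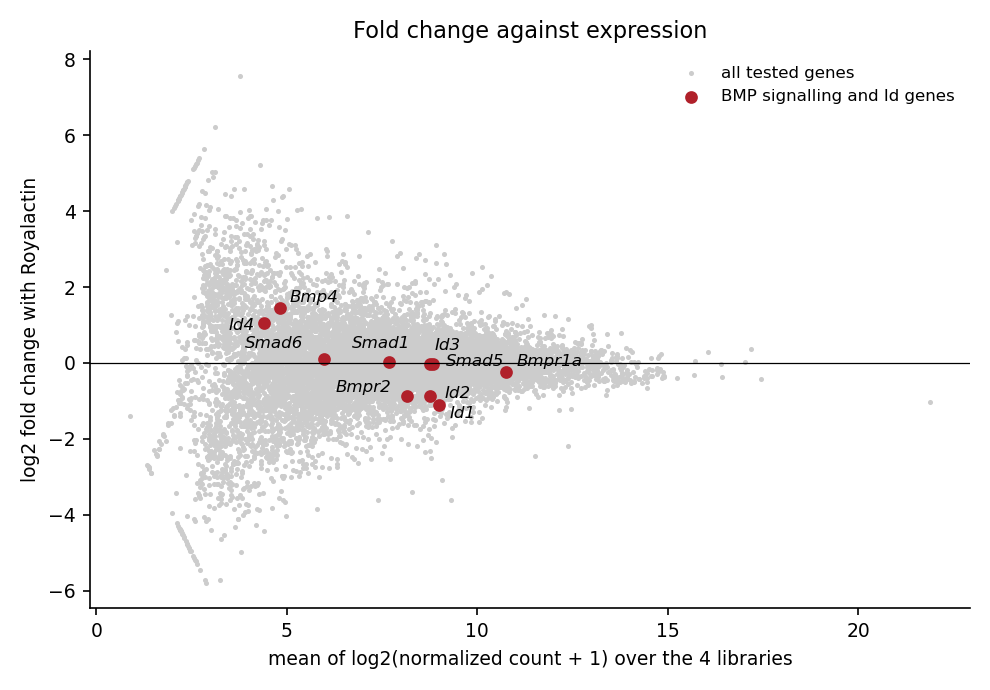
Log2 fold change with Royalactin against the mean log2(normalized count + 1) over the 4 libraries, for all 12993 tested genes (grey) and the 10 BMP signalling and Id genes (red, named). Id1, Id2 and Bmpr2 sit near -1 inside the grey cloud, Smad1, Smad5, Id3 and Smad6 sit near 0, and Bmp4 and Id4 lie above 0 among the scattered low genes.

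The remaining genes of the pathway were taken from a list of 55, of which 54 were in the table, 30 passed the filter and 7 had no reads in any library. None of the 30 had an adjusted p-value under 0.05 (limma), against 0.493% of all tested genes. By edgeR and DESeq2 on recovered reads 0 were called as well. Msx1 alone had an unadjusted p under 0.05 (limma), against 9.34% of tested genes, and alone met the study's limits, against 7.13%. Both Royalactin libraries lay below both serum/-LIF libraries for 7 of the 30, against 18.9% of tested genes. They lay above both for 4 of the 30, against 19.7%. The median log2 fold change of the 30 was -0.16, with 17 below 0 and 13 above. The named genes are, in each role, the tested genes with the largest value above and below 0, and also Tcf4 and Bmp8b.

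Of 13 other ligands, 3 were tested and 5 had no reads in any library. Bmp8b measured 58.8 and 45.5 normalized counts in serum/-LIF and 5.03 and 27.5 with Royalactin, below both serum/-LIF libraries. Its log2 fold change was -2.01, with a limma interval from -4.28 to 0.26. Bmp6 measured 17.4 and 0 normalized counts in serum/-LIF and 21.1 and 17.9 with Royalactin (log2 fold change 2.25, SE 1.79), and Bmp7 measured 20.1 and 16.6 against 0 and 13.1 (-2.36, SE 1.83). Bmp6 and Bmp7 were seen with at most 26 reads in a library, and neither difference passed the test (limma adjusted p = 0.755 and 0.746). Each size rested on a library with 0 reads: Bmp6 was 0.15 without serum/-LIF replicate 2 and 4.35 without serum/-LIF replicate 1, and Bmp7 was -0.45 without Royalactin replicate 1 and -4.27 without Royalactin replicate 2.

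Of 8 receptors and co-receptors, 6 were tested. Acvr2a, a type II receptor shared by BMPs and activins, measured 341 and 440 normalized counts in serum/-LIF and 324 and 211 with Royalactin (log2 fold change -0.56, SE 0.39; limma adjusted p = 0.717). Its Royalactin libraries were below both serum/-LIF libraries, as those of Bmpr2 were. Eng, the co-receptor endoglin, measured 86.9 and 99.4 in serum/-LIF and 129 and 132 with Royalactin (0.48, SE 0.52; limma adjusted p = 0.829), above both.

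Smad7, the other inhibitory Smad, measured 937 and 373 normalized counts in serum/-LIF and 637 and 390 with Royalactin (log2 fold change -0.25, SE 0.44; limma adjusted p = 0.904), with overlapping groups. Among 6 inhibitors inside the cell or at its membrane, all tested, the ubiquitin ligase Smurf2, which targets Smads, measured 1309 and 1222 normalized counts in serum/-LIF and 983 and 1025 with Royalactin (-0.33, SE 0.29; limma adjusted p = 0.785). Both its Royalactin libraries were lower than both others. The Smad co-repressor Ski measured 896 and 482 in serum/-LIF and 896 and 744 with Royalactin (0.31, SE 0.36; limma adjusted p = 0.841).

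Of 13 secreted antagonists and modulators, 6 were tested. Chrdl1, which binds BMP ligands, measured 28.1 and 0 normalized counts in serum/-LIF and 16.1 and 10.3 with Royalactin (log2 fold change 1.37, SE 1.91). This value is the largest above 0 of its role but has no settled direction: the group means were 14.0 and 13.2 normalized counts, edgeR gave -0.057 and DESeq2 -0.084 on recovered reads, and without serum/-LIF replicate 2 it was -1.06. Nbl1, another secreted BMP antagonist, measured 42.8 and 0 in serum/-LIF and 0 and 2.07 with Royalactin (-1.92, SE 2.92), and its log2 fold change was 0.81 without serum/-LIF replicate 1. In both genes serum/-LIF replicate 2 had 0 reads, and the groups overlapped.

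Among 8 further target genes, 4 were tested. Msx1, a homeobox gene induced by BMP in embryonic tissues, measured 77.6 and 78.7 normalized counts in serum/-LIF, from 58 and 76 reads, and 9.05 and 22.7 with Royalactin, from 9 and 33 reads. Its groups stood far apart and its serum/-LIF replicates were close together. Msx1 had a log2 fold change of -2.36 (SE 0.87, 95% interval -4.24 to -0.48), with an unadjusted p of 0.0177 and an adjusted p of 0.389 (limma). The unadjusted p was 0.0508 without serum/-LIF replicate 1, 0.0567 without serum/-LIF replicate 2 and 0.109 without Royalactin replicate 1, so that Msx1 then left the study's limits. Hey1, a target of both BMP and Notch signals, measured 34.8 and 20.7 in serum/-LIF and 65.4 and 36.5 with Royalactin (0.84, SE 0.84; limma adjusted p = 0.814), above both serum/-LIF libraries.

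E proteins are the partners that Id proteins bind. Of 4 listed E proteins 3 were in the table and tested. Tcf3 (the E2A gene) measured 883 and 577 normalized counts in serum/-LIF and 848 and 845 with Royalactin (log2 fold change 0.25, SE 0.33; limma adjusted p = 0.868). Tcf12 measured 736 and 1013 in serum/-LIF and 749 and 604 with Royalactin (-0.36, SE 0.33; limma adjusted p = 0.790). The groups overlapped for both. Tcf4 measured 488 and 483 normalized counts in serum/-LIF and 594 and 511 with Royalactin, above both serum/-LIF libraries. Its log2 fold change was 0.18, with a limma interval from -0.53 to 0.89.

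**Figure D5:**
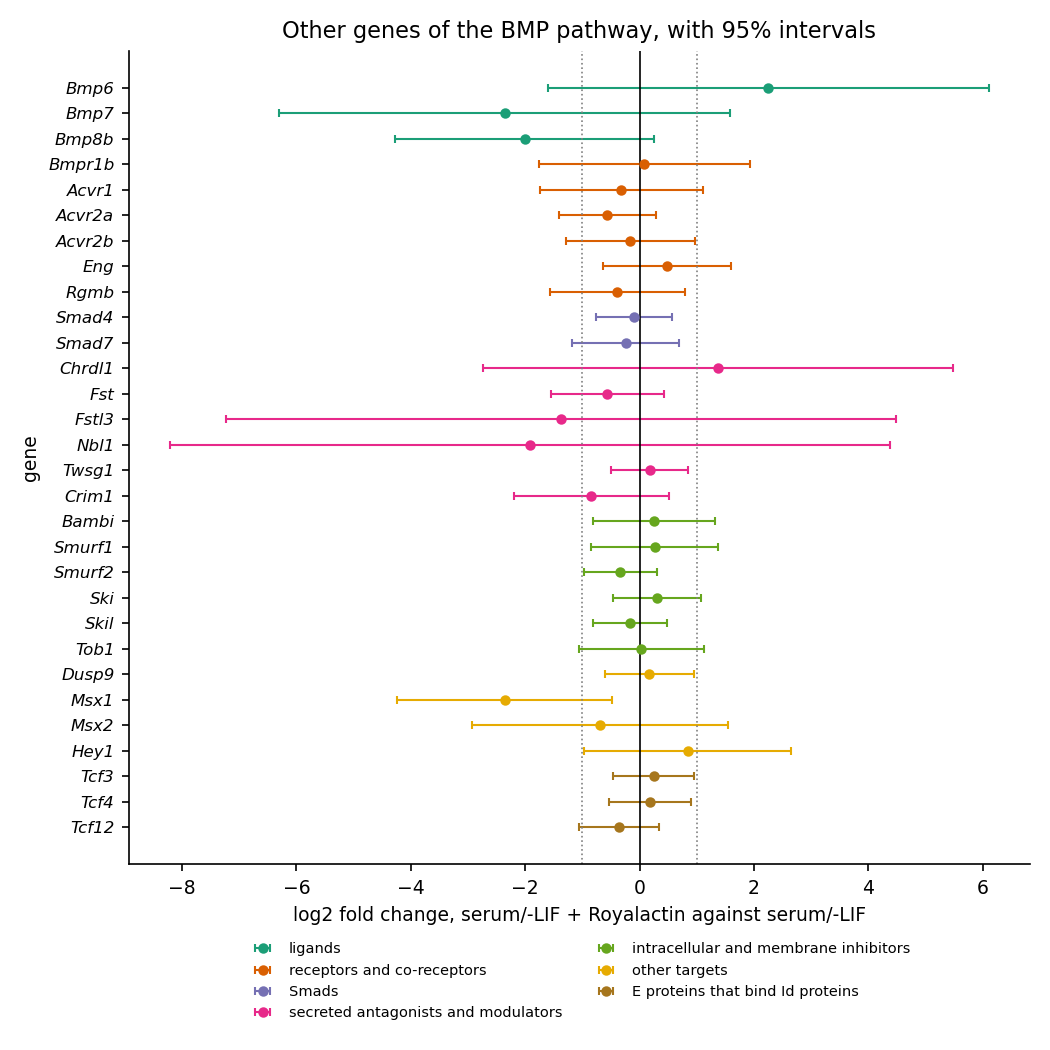
Log2 fold changes with Royalactin and 95% intervals (limma) of the 30 other BMP pathway genes that were tested, coloured by role, with dotted lines at a 2-fold change. The interval of Msx1 alone lies wholly on one side of 0, and the ligands and secreted antagonists have the widest intervals.

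The genes whose pattern over the 4 libraries was most like that of each Id gene were found by the root mean square distance of log2(normalized count + 1) after centring. They were Wdr86 (distance 0.037) and Clic1 (0.061) for Id1, and Fam19a5 (0.044) and Synm (0.050) for Id2. For Id3 they were Cse1l (0.017) and Klc2 (0.020), and for Id4 Dnmbp (0.019) and Paqr4 (0.046). Within a distance of 0.1 lay 11 tested genes for Id1, 20 for Id2, 205 for Id3 and 5 for Id4. A fixed distance takes in more genes around a gene with small differences than around one with large ones, and with 4 libraries such likeness is a description only.

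Markers of other cell states also differed between the groups in which Id1 and Id2 differed. The 6 neural progenitor markers, Nes the largest, summed to between 1252 and 1613 normalized counts in serum/-LIF and between 548 and 581 with Royalactin. Of 3 tested, 1 was called lower at an adjusted p under 0.05 (limma; 0.493% of all tested genes were called). Neurog2 was at 0 throughout. The 6 trophoblast markers, Krt8 the largest, summed to between 1662 and 1732 in serum/-LIF and between 431 and 834 with Royalactin. Of 3 tested, 2 were called lower at the same threshold, and Elf5 was at 0. The 8 fibroblast markers, Thy1 the largest, summed to between 94.2 and 112 in serum/-LIF and to between 37.2 and 55.3 with Royalactin. Of these, 0 of 2 tested were called, and Postn and Pdgfrb were at 0. The primitive endoderm markers (295 to 368 against 219 to 334) and those of primitive streak and mesoderm (124 to 197 against 94.99 to 149.9, with Tbx6 at 0) overlapped, with none called, and 3 of the 7 embryonic stem cell markers were called higher. The part of these differences in the values of Id1, Id2, Bmpr2 and Msx1 was not tested.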

How the data were processed

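RNA-seq of ribosomal RNA-depleted total RNA from J1 mESCs was used, 2 serum/-LIF and 2 serum/-LIF + Royalactin libraries, grouped by the titles in the sample labels. Tophat alignment to mm9 and HTSeq-count were followed by DESeq normalization, and the authors deposited the resulting signal, normalized counts that are proportional to the read count. The annotation and strand setting of the counting are not given in the sources used here. Reads were recovered from the step that each library's values share, of which 100% were whole multiples to within 0.01 of a read. The step of Royalactin replicate 1 is 1.01, too near 1 for an automatic check, so tests on reads serve as alternatives only.

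Genes whose mean reached 10 normalized counts were tested in R 4.3.3 by limma 3.58.1 (eBayes with a variance trend, two-sided, Benjamini-Hochberg), after a log2 transform with a pseudocount of 1. Fold changes are on this log2(normalized count + 1) scale, a difference of mean logs, and can be larger or smaller than the ratio of the group means where a gene is low or its replicates are uneven. The study's limits were applied to unadjusted limma p-values. Steps were tested on simulated data. Exon lengths and positions came from GENCODE (mm9), which matched 98.1% of tested genes, and exon tiles of 75 bases were mapped with minimap2. All 10 members are named, with the other pathway genes by largest difference or call in each role, Tcf4, Bmp8b, and the nearest 2 genes to each Id gene. Members and lists were chosen with earlier results of these data known. Alternatives were other pseudocounts, filters and scalings, no trend, a replicate block, a GC content and length correction, each library left out, and edgeR 4.0.16 and DESeq2 1.42.0 on recovered reads.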

Additional observations from a re-analysis of the deposited data

How the results depend on the processing

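Id1, Id2, Bmpr1a and Bmpr2 kept their direction under all 16 alternatives, and Msx1 under the 15 that tested it. For these genes both Royalactin libraries lay below both serum/-LIF libraries, so leaving out a library could not turn the sign. The other pseudocounts and filters, no trend and the replicate block alone could not turn it either. Only the other scalings, the GC content and length correction, edgeR and DESeq2 could have done so. For Id1 the log2 fold change ranged from -1.41 to -0.81, for Id2 from -1.18 to -0.55 and for Bmpr2 from -1.16 to -0.60. Against the 64 genes with an adjusted p under 0.05, 32 were called with a pseudocount of 0.1, 99 with a mean of at least 50, 34 over all genes with a value above 0, 0 by limma without the trend (where 1079 met the study's limits), 248 with the GC content and length correction and 248 by DESeq2. With a mean of at least 50 the medians were -0.13 for the members and -0.86 for the Id genes that remained tested, and 0 other pathway genes met the study's limits because Msx1 was no longer tested. With the GC content and length correction the median of the Id genes was -0.29 and 0 members met the study's limits, Id1 being at -0.98. Whether the replicate numbers pair the libraries is not settled. Deviations of same-numbered libraries from their group means had a correlation of 0.0851 across the tested genes, with only 2 pairs. In serum/-LIF the Rn45s share was 46.6% in replicate 1 and 21.6% in replicate 2. With Royalactin it was 38.4% in replicate 1 and 9.08% in replicate 2. With the replicate block 391 genes were called, and 1 member, Id1 (adjusted p 0.0449, limma). With the replicate block and the GC content and length correction 798 were called, 1 member, Id1, at adjusted p 0.00892, while 0 met the study's limits and the Id median was -0.29. Leaving out each library, with the lone library assumed to vary like the other group, called 0 genes by adjusted p in limma, and the ranges were 427 to 1925 genes by the study's limits, 0 to 2 members, 0 to 2 other pathway genes, -0.26 to -0.063 for the median of the members and -0.76 to -0.31 for that of the Id genes. The 2 members were Id1 and Id2 without serum/-LIF replicate 1, and Bmp4 and Bmpr2 without serum/-LIF replicate 2. Values near 0 changed sign: Id3 was 0.023 and Smad5 0.041 with scaling to total reads without Rn45s, Id3 was 0.033 and Smad1 -0.048 with the GC content and length correction, with or without the block, Smad1 was -0.013 by DESeq2, and Chrdl1 was -0.057 by edgeR and -0.084 by DESeq2. Leaving out each library gave -0.34 to 0.27 for Id3, -0.19 to 2.29 for Id4, -0.31 to 0.35 for Smad1, -0.21 to 0.18 for Smad5, -0.83 to 1.05 for Smad6, -0.91 to 0.42 for Smad7, -1.06 to 3.80 for Chrdl1, -4.64 to 0.81 for Nbl1, -0.13 to 0.76 for Ski and -0.061 to 0.55 for Tcf3. The cause of these moves was not tested. With 2 libraries a group, Bmp4 held from 4 to 67 reads and Id4 from 5 to 37. For both genes the Poisson intervals of the serum/-LIF replicates did not overlap, so these replicates differed by more than counting error. Changes of these genes were not detectable here unless large.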
